A study of Mus musculus with 2 samples.

Results

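The H3K36me3 peaks that lie just past the end of a gene were examined in primary KCs. They are the peaks whose deposited annotation places them downstream of a gene, at most 3000 bp from its end and on no exon, intron or promoter of the annotation used. 341 of 45575 peaks carried this annotation (0.748%, exact binomial 95% interval 0.671 to 0.832), of which 143 were annotated within 1 kb of the end, 90 at 1 to 2 kb and 108 at 2 to 3 kb. They held 380408 bp, or 0.211% of all bases in peaks.

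H3K36me3 was profiled by ChIP-seq in KCs from the skin of 10-week-old C57BL/6 mice that were Setd2fl/fl, which are the floxed controls with intact Setd2, the gene for the methyltransferase that places the mark. 1 ChIP library was sequenced beside 1 input library from the same kind of cells, the epidermis having been separated with dispase and the KCs released with trypsin. Both libraries came from floxed controls, so no value below bears on loss of Setd2, and with 1 library no replicate error and no test between samples can be given. The input library and its depth were not analysed here, the sequencing depth of the ChIP library is unknown, and the intervals given with shares cover counting error over peaks or genes only, which are not replicates. The bodies of the KC keratin genes Krt5, Krt14 and Krt10 were covered by peaks over 96.0, 89.9 and 98.4%, and all 17 basal KC markers examined had a peak. Col1a1 and Col3a1 of fibroblasts, Ptprc of leukocytes, Cdh5 of endothelium and Tyr and Dct of melanocytes were covered over 0%, while 1 of 14 fibroblast, 2 of 9 melanocyte, 4 of 14 immune and 2 of 10 endothelial markers had a peak.

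H3K36me3 is laid down by SETD2, which travels with elongating RNA polymerase II, and the mark usually increases towards the 3′ end of a transcribed gene. Transcription does not stop at the polyadenylation site. The transcript is cleaved there, usually downstream of an AAUAAA signal, while the polymerase runs on for some distance before it is released, so the DNA just after a gene can carry marks of elongation. An annotated gene end can also fall short of the longest 3′ UTR that a tissue uses.

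3 of the downstream peaks with the highest fold enrichment (deposited as ChIP over the peak caller's estimate of background) are shown here as sequence. These 3 come next after the highest peak in rank order and were not chosen by kind of gene end. The Phtf2 peak followed a gene with several H3K36me3 peaks on its body, the Gmds peak followed a very long gene with little of it, and the H2-M10.2 peak followed a gene with none. Each line gives the reference sequence (GRCm38, minus strand, which is the strand of the gene) of the central 300 bases of the peak, and for Gmds of the whole peak. They are Phtf2 at chr5:20757822-20758121, Gmds at chr13:31817937-31818236 and H2-M10.2 at chr17:36279813-36280112, all in DNA outside RefSeq genes. Capitals mark AATAAA, the DNA form of the polyadenylation signal.
Phtf2: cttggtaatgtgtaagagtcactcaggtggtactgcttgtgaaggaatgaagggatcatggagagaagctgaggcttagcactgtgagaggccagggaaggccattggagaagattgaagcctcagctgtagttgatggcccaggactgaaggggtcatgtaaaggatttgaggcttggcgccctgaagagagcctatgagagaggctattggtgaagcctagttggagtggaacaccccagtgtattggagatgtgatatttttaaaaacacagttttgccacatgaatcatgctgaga
Gmds: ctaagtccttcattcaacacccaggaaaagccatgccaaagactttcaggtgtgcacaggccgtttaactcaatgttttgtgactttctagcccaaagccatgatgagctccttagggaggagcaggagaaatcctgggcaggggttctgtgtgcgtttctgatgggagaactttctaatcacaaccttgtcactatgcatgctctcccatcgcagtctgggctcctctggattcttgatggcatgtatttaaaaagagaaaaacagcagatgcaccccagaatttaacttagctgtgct
H2-M10.2: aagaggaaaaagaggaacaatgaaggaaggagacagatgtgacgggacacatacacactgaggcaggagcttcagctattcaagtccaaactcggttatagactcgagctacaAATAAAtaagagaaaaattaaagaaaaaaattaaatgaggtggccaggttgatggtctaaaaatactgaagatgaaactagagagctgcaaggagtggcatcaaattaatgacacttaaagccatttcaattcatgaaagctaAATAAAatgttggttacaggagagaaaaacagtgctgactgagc
AATAAA was found 2 times in the H2-M10.2 window, at bases 114 and 257, and in neither of the other windows on this strand. Repeats masked in the reference made up 85.9% of the whole Phtf2 peak, 9% of the Gmds peak and 26.1% of the H2-M10.2 peak.

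All 341 downstream peaks lay within 3000 bp after the end of a gene on the minus strand. The deposited distance step equalled the distance to a minus-strand end for 341 of 341. Only 48 (14.1%) also lay within 3000 bp after a plus-strand end. Genes themselves were split evenly, since 50.1% of protein-coding genes are on the minus strand, and 51.1% of minus-strand and 51.7% of plus-strand protein-coding genes carried a peak. The peaks after plus-strand ends were in another deposited class. Of the 1060 peaks annotated as distal intergenic, 0 lay within 3000 bp after a minus-strand end (exact upper limit 0.347%), against 273 (25.8%, interval 23.1 to 28.5) after a plus-strand end. The downstream class therefore held gene ends of 1 strand, and 614 peaks (1.35% of all) met its distance rule once both strands were read alike. The farthest member stood 2994 bp after its end, and the nearest distal intergenic peak past a minus-strand end stood at 3011 bp. How the annotation came to differ by strand was not tested. The 273 peaks after plus-strand ends are used below as another set of gene ends that the rule did not take in.

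**Figure D1:**
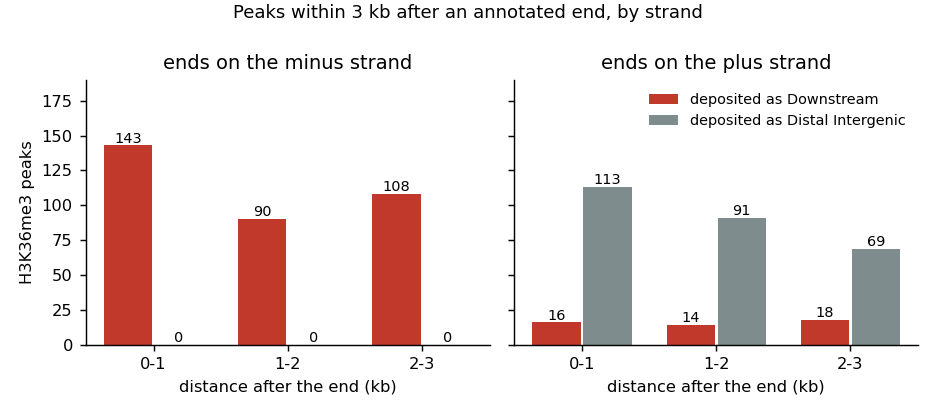
Number of H3K36me3 peaks at 0 to 1, 1 to 2 and 2 to 3 kb after an annotated transcript end, for minus-strand ends (left) and plus-strand ends (right), by deposited class; a peak near ends of both strands is counted in both panels. After minus-strand ends all peaks (143, 90 and 108) are in the downstream class and 0 are in the distal intergenic class, while after plus-strand ends 113, 91 and 69 are distal intergenic.

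The downstream peaks were small and low. A wide peak that reaches a gene falls in another class, so their width is in part limited by the class. In this bulk library a mark in few cells and a weak mark in all cells cannot be told apart. Their median width was 779 bp (quartiles 410 and 1343, range 249 to 10883), against 1626 bp in all other peaks and 2922.5 bp in the 3′ UTR class. 107 of 341 (31.4%, interval 26.5 to 36.6) were narrower than 500 bp, against 16.9% of other peaks, and 19 (5.57%) were wider than 3000 bp, against 33.3%. Their median fold enrichment was 2.75 (quartiles 2.64 and 2.95, range 2.41 to 3.70), against 2.91 in all other peaks and 3.03 in the 3′ UTR class. A fold enrichment of at least 3 was reached by 65 (19.1%, interval 15.0 to 23.6), where 40.0% of all peaks reached it. A P below 1e-05 was reached by 6 (1.76%), where 12.8% of all peaks reached it. In both measures they lay nearest to intron peaks (median width 842 bp, fold enrichment 2.76, and 17.9% at or above 3) and to distal intergenic peaks (633 bp, 2.72 and 13.6%).

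The peaks after plus-strand ends had similar values. Their median width was 726 bp and their median fold enrichment 2.74, and 16.5% reached 3 (interval 12.3 to 21.4), an interval that overlaps that of the downstream class. The 787 distal intergenic peaks that remained without them were narrower (583 bp) and 12.6% reached 3 (interval 10.3 to 15.1). That interval also overlaps the one of the plus-strand set, and it just meets the one of the downstream class (15.0 to 23.6). Overlap of intervals therefore does not separate these sets in fold enrichment. Masked repeats made up a median of 26.4% of a downstream peak and 23.6% of a peak after a plus-strand end, against 38.7% in the remaining distal intergenic peaks and 22.7% in all peaks outside the downstream class.

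**Figure D2:**
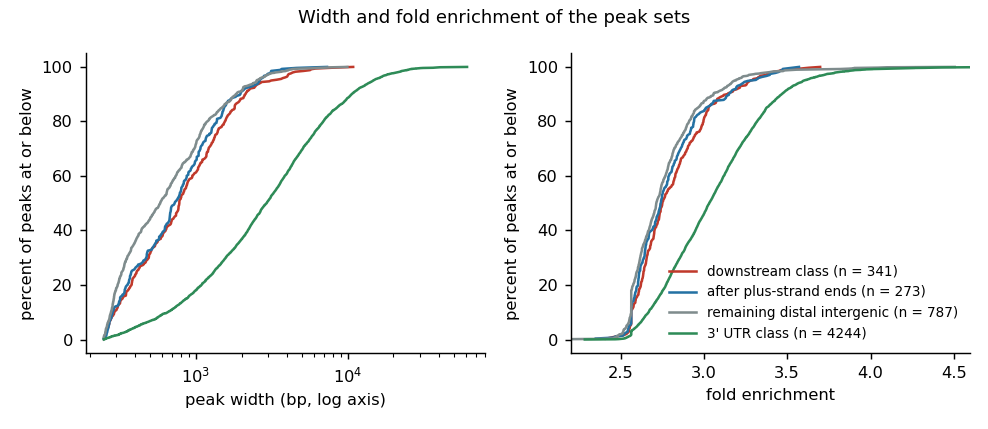
Cumulative percent of peaks by width (left, bp, log axis) and by fold enrichment (right; the axis stops at 4.6 and leaves out the few higher 3′ UTR peaks) in the downstream class (n = 341), the distal intergenic peaks after plus-strand ends (n = 273), the remaining distal intergenic peaks (n = 787) and the 3′ UTR class (n = 4244). The curves of the downstream class and of the plus-strand set run together in both panels, and the 3′ UTR curve lies to their right, with a median width of 2922.5 bp against 779 bp in the downstream class.

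Each peak was next given to the gene whose annotated end it followed, taken as the nearest transcript end on either strand with the peak on its 3′ side. For 341 of 341 that end was also the end of the whole gene model. The nearest end was on the plus strand for 25 (7.33%), so these followed a plus-strand gene although a minus-strand end placed them in the class. The near edge of the peak stood a median of 1164 bp after the end (quartiles 372 and 2107, range 2 to 2994), and 156 (45.7%) began within 1000 bp. The closest followed 9130401M01Rik at 2 bp with a width of 1100 bp, Rab21 at 8 bp and Klhl26 at 12 bp. Distance and width showed little order. Median widths were 838, 748 and 776 bp in the deposited steps of under 1, 1 to 2 and 2 to 3 kb, and median fold enrichments were 2.82, 2.74 and 2.72.

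**Figure D3:**
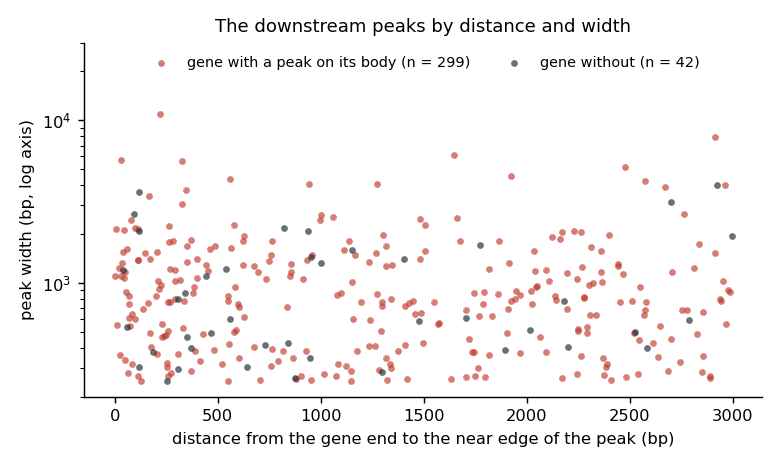
Each point is 1 of the 341 downstream peaks, by distance from the end of the followed gene to the near edge of the peak (bp) and by peak width (bp, log axis), coloured by whether the followed gene had a peak on its body (299) or not (42). Both kinds are spread over all distances, and the widest peak, 10883 bp long, lies 219 bp after the end of Scin.

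The peaks followed 331 genes, of which 305 were protein-coding, 13 were lincRNA genes and 13 had other biotypes. 290 of the 331 (87.6%, interval 83.6 to 91.0) had at least 1 bp of a peak on their body, where 27.0% of genes of any biotype did. Among protein-coding genes the share was 278 of 305 (91.1%, interval 87.4 to 94.1), where 51.4% of all protein-coding genes were marked. Followed protein-coding genes were long, with a median of 42538 bp against 17425 bp for all protein-coding genes. At the same length deciles, 59.2% of protein-coding genes were marked. Genes after which the plus-strand set lay were marked as often, in 234 of 249 protein-coding genes (94.0%, interval 90.3 to 96.6). Of the 13 lincRNA genes, 2 were marked (15.4%, interval 1.92 to 45.4), where 5.43% of lincRNA genes were. These were 2610035D17Rik and Lncpint, covered over 14.2 and 20.4%, and both are named here after their values were seen.

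A peak on the body did not mean a body covered from end to end. Followed protein-coding genes were covered over a median of 35.1%, and the marked ones over 39.4%, against 46.8% in other marked protein-coding genes, which were also shorter (24940 bp at the median). At least 50% of the body was covered in 103 of 305 (33.8%), against 23.8% of all protein-coding genes. More of the followed genes were marked at all (91.1% against 51.4%), so this contrast does not show fuller cover of a marked gene. By the medians above, marked followed genes were the less covered. The body was more strongly enriched than the DNA after it. For 266 of the 299 peaks that followed a marked gene (89.0%, interval 84.9 to 92.3), the highest peak on the body exceeded the downstream peak in fold enrichment, by a median difference of 0.465 over all 299. The highest of several peaks is compared here with 1 peak, so an excess is favoured by the count alone.

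The next peak towards the gene gives a comparison of 1 peak with 1 peak. It lay on the followed gene for 290 of 341 downstream peaks (85.0%). In 226 of these 290 (77.9%, interval 72.7 to 82.6) the downstream peak was the lower in fold enrichment, and in 247 (85.2%) it was the narrower. Medians were 2.75 and 780 bp for the downstream peak, against 3.09 and 3513 bp for the peak on the gene. A downstream peak may touch no gene of the annotation used, so a wide peak that reaches the gene falls in another class. The neighbour faces no such limit, so the difference in width is in part set by the class. Downstream peaks with a fold enrichment of at least 3 were wider (median 1164 bp, against 779 bp in all 341). Whether the class also sets part of the difference in fold enrichment was not tested. That neighbour belonged to the 3′ UTR class in 141, the promoter class in 105, the exon class in 20, the intron class in 19 and the 5′ UTR class in 5. The gap to it had a median of 1538.5 bp and was under 3000 bp in 235 (81.0%). It was under 1000 bp in 6, and under 500 bp in 0. No gap in the whole file was shorter than 989 bp, and 366 of 45554 neighbouring pairs (0.803%) stood within 1000 bp, so a stretch without a peak could be seen only from about that length upward. Where the gap was up to 3000 bp, masked repeats took a median of 26.2% of the downstream peak, against 19.2% of the gap, and the gap was the more masked in 89 of 235 (37.9%).

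With any gene counted, 245 downstream peaks (71.8%) had another peak within 3000 bp on the side of the followed gene and 79 (23.2%) on the far side. 270 (79.2%) had one on at least 1 side. 25 (7.33%) had no peak within 10000 bp on either side. In 103 (30.2%) the gene end itself was inside another peak, with a median width of 4382 bp, so that the downstream peak was the next one out. This was so for 0 of 143 peaks annotated within 1 kb, 38 of 90 at 1 to 2 kb (42.2%) and 65 of 108 at 2 to 3 kb (60.2%). No gap between peaks was shorter than 989 bp, so the 0 within 1 kb was nearly fixed in advance. The room for a peak over the end also grows with distance, so the rise is given as a description.

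Around the ends of the 290 followed marked genes the covered share dipped and then recovered. Over the last 1 kb of the body 44.0% of bases were in peaks, against 64.2% in the 10990 other marked protein-coding genes, and over the 1 kb that starts 5 kb before the end both stood at 56.2%. The 3 successive 1 kb steps after the end held 45.2, 34.4 and 30.9%, against 52.7, 36.3 and 27.3% in the other genes, and the fifth step held 11.7% against 22.6%. Marked genes before the plus-strand set held 43.9% over the last 1 kb of the body. This shape is in large part set by the rule and is given as a description. A member must have a peak within the 3 kb after the end, cannot cross the end itself, and stood at least 989 bp from any other peak. It also lies on no gene, whereas the other marked genes may have a gene directly after their end. This bears on the fifth step too. The other marked genes include protein-coding genes of the plus-strand set.

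**Figure D4:**
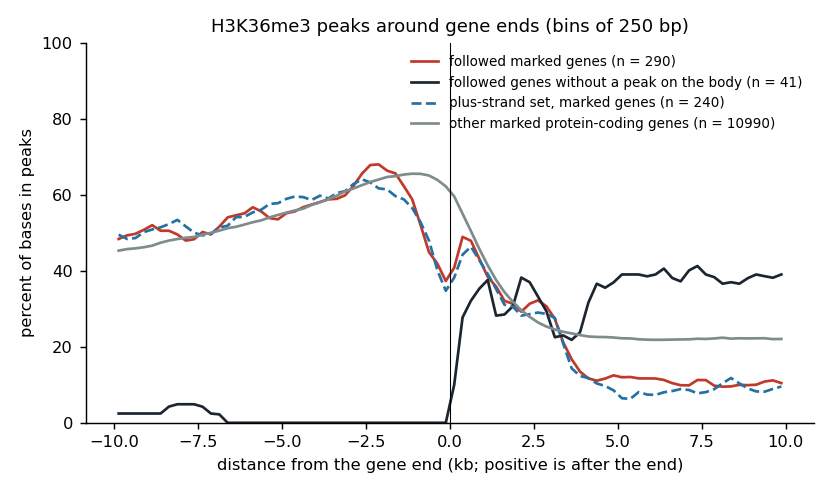
Percent of bases in H3K36me3 peaks in bins of 250 bp from 10 kb before to 10 kb after the gene end, for followed marked genes (n = 290), followed genes without a peak on the body (n = 41), marked genes before the plus-strand set (n = 240) and other marked protein-coding genes (n = 10990). The followed marked genes and the plus-strand set both dip at the end, with 44.0 and 43.9% over the last 1 kb of the body, where other marked genes hold 64.2%. The other marked genes include protein-coding genes of the plus-strand set.

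To place this against all gene ends, 13340 protein-coding genes with no other gene in the 3000 bp after them were taken, on either strand. A peak reached or lay in those 3000 bp in 3697 of the 5798 marked ones (63.8%, interval 62.5 to 65.0) and in 130 of the 7542 unmarked ones (1.72%, interval 1.44 to 2.04). Most of this was a peak that crossed the end, which 3270 of the 5798 had (56.4%) and which covered a median of 1330.5 of the 3000 bp together with any further peak. Peak bases after the end without a crossing peak were found in 429 (7.40%), in 7.36% of minus-strand and 7.44% of plus-strand genes. A peak detached from the gene end was thus the less common form. A crossing peak also lies on the body, so it makes its gene marked by definition. The 1.72% of unmarked genes therefore does not compare with the 63.8%. The 7.40% is no like measure either, and is too low for this comparison. Its base of 5798 genes includes the 3270 with a crossing peak, which could not be counted. The share among marked genes without a crossing peak was not computed.

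The 10 downstream peaks with the highest fold enrichment all lay outside RefSeq genes, and 9 followed a gene with a peak on its body. Nrbf2, a subunit of the autophagy PI3-kinase complex, led with 3.70. Its peak (1618 bp) began 58 bp after the end of a gene covered over 41.3% by a single peak of 7697 bp with a fold enrichment of 3.44, and 1467 bp separated them. Phtf2 was next at 3.63, with 801 bp at chr5:20757571-20758371, 292 bp after its end. 9 peaks covered 23.8% of its body. In 7 of these 10 the last 1 kb of the gene was free of peaks, so the stretch without a peak spanned the gene end. H2-M10.2, which had no peak on its body, was among these 7. At Nrbf2, Phtf2, Mtmr9 and Rab21 the peak began only 58, 292, 605 and 8 bp after the end. Peaks stood at least 989 bp apart, so part of the last 1 kb of these genes was empty in advance. The count is given as a description, without the share over all downstream peaks.

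Gmds, which encodes the first enzyme of GDP-fucose synthesis, had the third highest peak at 3.58. It was 300 bp wide and stood 1343 bp after the end of a gene of 519162 bp, of which 5 peaks covered 0.644%. The deposited gene was Foxc1, a forkhead transcription factor gene whose end faces that of Gmds, 5461 bp from the peak. Ccnl1, which encodes cyclin L1 of the splicing machinery, was covered over 92.4% by a peak of 12971 bp with a fold enrichment of 4.13. The downstream peak stood 1057 bp from it, at chr3:65943016-65943301, with 286 bp and 3.46. The other peaks of these 10 followed Rnf217 (3.45, 2535 bp) and Topors (3.38, 289 bp), which encode E3 ubiquitin ligases, Rab8b (3.42, 650 bp) and Rab21 (3.39, 2137 bp), which encode small GTPases of vesicle transport, and Mtmr9 (3.41, 714 bp) of the myotubularin family. Their bodies were covered over 19.4, 57.0, 25.7, 44.3 and 74.1%.

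**Figure D5:**
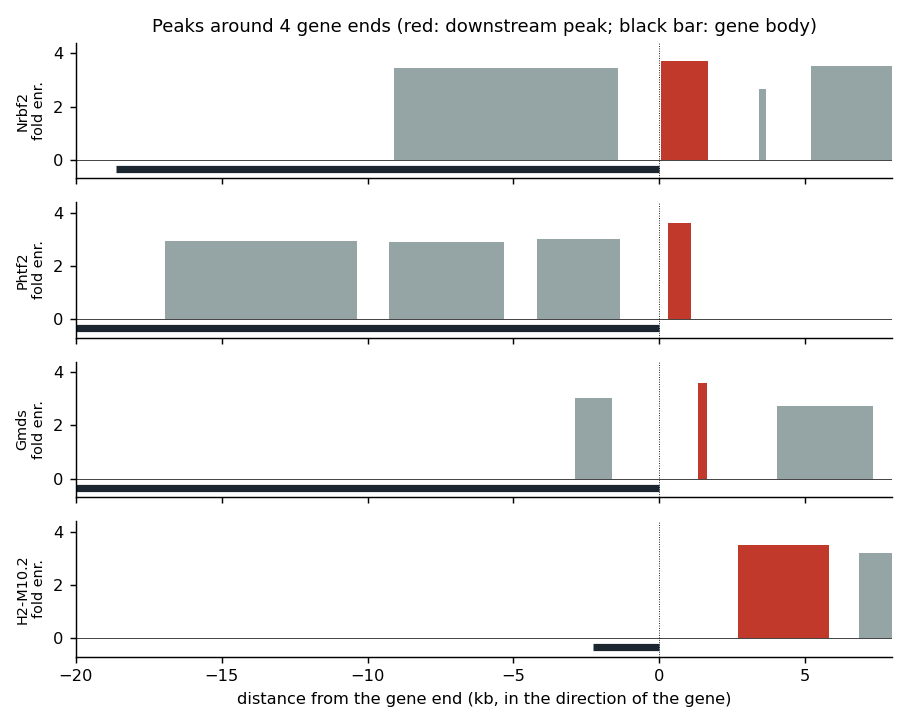
Deposited peaks around the ends of Nrbf2, Phtf2, Gmds and H2-M10.2, from 20 kb before to 8 kb after the end in the direction of the gene; the height of a block is its fold enrichment and its width is to scale, red marks the downstream peak, grey marks other peaks and the black bar is the gene body. A peak-free stretch separates Nrbf2, Phtf2 and Gmds from their downstream peak, and H2-M10.2 has no peak on its body.

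The 10 widest downstream peaks all followed marked genes. Scin, which encodes the actin-severing protein scinderin, had the widest at 10883 bp (chr12:40048668-40059550, fold enrichment 3.17), 219 bp after its end, and 65.8% of it was masked repeat. The Scin body was covered over 53.5% by 7 peaks, the nearest 4678 bp away, and the deposited gene was Arl4aos. Klrg2 had a peak of 7923 bp (3.22) that began 2913 bp after its end in GENCODE but overlapped an exon of Klrg2 in RefSeq. Lnpk, which shapes the endoplasmic reticulum (5662 bp, 2.98), and Rsbn1l (4339 bp, 2.97) were likewise followed by peaks that touched an exon of their own RefSeq model. Mfsd2a, a lysophospholipid transporter gene (5724 bp, 2.86), Ect2, a gene of cytokinesis (5135 bp, 3.07), and Smc5 of the SMC5/6 complex (4089 bp, 3.08) were followed by peaks outside RefSeq genes. The Ect2 peak was 96.2% masked repeat. The others followed Rnf7 (4530 bp, 3.18), which encodes a RING subunit of cullin ligases, Pggt1b (4241 bp, 2.72), a prenyltransferase subunit gene, and Pisd-ps2 (6143 bp, 2.90), a pseudogene whose reads may be shared with its parent copy.

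RefSeq gives some gene ends farther out than GENCODE. 279 of the 341 peaks (81.8%, interval 77.3 to 85.8) overlapped no RefSeq gene of the same build. 26 (7.62%) overlapped an exon of the followed gene, 15 of them lying wholly inside it, 24 lay in introns only and 12 overlapped an exon of another gene. For most of these peaks, then, neither annotation extended the gene that far. The 279 had a median width of 778 bp, a median fold enrichment of 2.75 and a marked followed gene in 90.0%, which is close to the values of the 341.

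Followed genes without H3K36me3 on the body numbered 41, and 42 peaks stood after them. The 27 protein-coding ones were short, with a median of 11095 bp against 45162.5 bp for the marked ones. Their peaks had a median width of 594.5 bp, against 781 bp after marked genes, and a fold enrichment of 2.74 against 2.75. 9 of the 42 were among the 25 peaks whose nearest end is on the plus strand. The class places these 9 after a minus-strand gene, so a convergent end lies within 3000 bp of them by construction. In all, 12 of the 42 (28.6%) lay within 3000 bp after the end of a convergent gene, which was marked in all 12, against 36 of 299 peaks after marked genes with any convergent end (12.0%), and this contrast is set by the assignment. Without the 25 peaks, a split chosen after seeing the data, the shares were 3 of 33 (9.09%, interval 1.92 to 24.3) and 20 of 283 (7.07%, interval 4.37 to 10.7). A further peak lay within 3000 bp on the far side in 17 of the 42 (40.5%), against 20.7% after marked genes, and without the 25 peaks in 10 of 33 (30.3%, interval 15.6 to 48.7), against 19.8% (interval 15.3 to 24.9), intervals that overlap. The fifth 1 kb after the end held 35.2% of bases in peaks for the 41 unmarked genes, against 11.7% for the 290 marked ones, and without the 25 peaks 26.3% for 32 unmarked genes, against 10.9% for 274 marked ones.

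Among the 10 highest peaks after unmarked genes, Creb3l3 was the only case of a minus-strand gene facing a marked convergent gene that ended within 3000 bp of the peak. This transcription factor gene, known from liver, ended 467 bp from a peak of 491 bp with a fold enrichment of 3.22 (chr10:81083367-81083857), and Thop1, a peptidase gene with H3K36me3 on its body, ended 808 bp from the same peak on the other side. The deposited gene was Thop1. 5 more of these 10 peaks were nearest to a plus-strand end but belong to the class through a marked minus-strand gene, so that a convergent end near them is a condition of membership. They lay after Tpte, a phosphatase gene known from testis, with the end of Slc25a15 at 1737 bp (peak 1445 bp wide, 3.26), after Mmrn2, an endothelial matrix gene, with Bmpr1a at 2680 bp (3648 bp, 3.001), after Nme9 with Armc8 at 2674 bp (306 bp, 2.90), after the lincRNA gene Gm41442 with Ppp1r2 at 2801 bp (306 bp, 3.01), and after the melanocyte marker gene Mlana with 9930021J03Rik at 2744 bp (501 bp, 2.997).

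The other 4 of these 10 had no marked convergent end that near. H2-M10.2, a nonclassical MHC class I gene, had the highest at 3.51, with 3133 bp at chr17:36278396-36281528, 2699 bp after its end and 557086 bp from the next peak on the side of the gene. H2-M10.2 belongs to a family of related genes, and whether reads of its downstream peak are shared with other copies was not tested. Stmn3, a stathmin gene known from neurons (4004 bp, 2.90), and the lincRNA genes Gm16087 (1320 bp, 3.04) and Gm26511 (1947 bp, 2.90) were the others, and the Gm26511 peak overlapped an exon of its RefSeq model.

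Ivl, which encodes involucrin of the cornified envelope, was the only listed marker of differentiated KCs with a downstream peak, and it had none on its body. Its peak was 600 bp wide, stood 560 bp after the end at chr3:92569743-92570342 and had a fold enrichment of 2.45, among the lowest of the 341, with 59.3% masked repeat. Of the 20 markers of differentiated KCs, 15 had a peak on the body. Rpl15, a ribosomal protein gene covered over 70.7%, was the only 1 of 36 cytosolic ribosomal protein genes followed by a downstream peak (328 bp, 2.78, 2744 bp after its end). The 27 factors of cleavage, polyadenylation and termination, the 17 basal KC markers, the 20 ubiquitously expressed genes and the 25 immediate early genes were followed in 0 cases, and 27, 17, 20 and 22 of them were marked. A downstream peak followed 1.39% of all protein-coding genes and 2.47% of marked ones, so counts of 0 or 1 in lists of this size are near the background. Of 67 replication-dependent histone genes 2 were marked and 0 were followed.

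Some further unmarked genes were picked after their values were seen. Fn1, which encodes the matrix protein fibronectin, had 0% of its 67681 bp in peaks and a downstream peak of 610 bp (chr1:71583204-71583813, fold enrichment 2.67) 1707 bp after its end. The deposited gene was Fn1. The next peak on the Fn1 side was 573177 bp away, and on the far side a 3′ UTR peak lay 1925 bp away, in the direction of Atic, a marked purine synthesis gene whose end was 3573 bp from the Fn1 peak. Ndufa1 (respiratory complex I, 3576 bp long), Timm8a1 (mitochondrial import, 4610 bp) and Lsm5 (RNA processing, 3648 bp) were short genes with no peak on the body and a downstream peak 185, 116 and 306 bp after the end. These peaks were 378, 2094 and 802 bp wide, with fold enrichments of 2.87, 2.85 and 2.82.

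10 genes were followed by 2 downstream peaks each, and none by more. They are named after their values were seen. 9 had H3K36me3 on the body, namely Ect2, Klrg2, Lacc1, Lhfpl1, Mapk8, Nek7, Scamp1, Usp12 and Zdhhc21, and 2210017I01Rik had none. The gaps between the paired peaks ran between 1121 bp at Mapk8 and 2018 bp at 2210017I01Rik. Nek7, which encodes a mitotic kinase, had 21 peaks over 24.4% of its body, then peaks of 483 bp (3.08) and 255 bp (3.03) at 431 and 2409 bp after the end. The nearer of the paired peaks was the narrower at 6 of the 10 genes.

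The gene named in the deposited annotation was the followed gene for 179 of 341 peaks (52.5%, interval 47.0 to 57.9). The other 162 were given to another gene, which was protein-coding in 76, a lincRNA gene in 18, a processed pseudogene in 18, an antisense gene in 16, and a gene of uncertain coding potential in 11. For these 162 peaks the followed gene was marked in 152 (93.8%), against 79 (48.8%) for the gene named in the annotation. The named and followed genes differ in biotype, since 305 of the 331 genes followed by any downstream peak were protein-coding. Over all genes, 51.4% of protein-coding and 5.43% of lincRNA genes were marked. The contrast was not tested within a biotype. In 81 (50%) the followed gene was marked and the named gene was not. Where the named and the followed gene were the same, 147 of 179 peaks (82.1%) followed a marked gene. A reading of the downstream peaks by the deposited gene name alone therefore changes which genes, and how many marked ones, they are tied to.

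In sequence the downstream peaks were close to other peaks. Their median GC content was 44.6%, against 44.1%. AATAAA stood on either strand of the central 300 bp of 116 downstream peaks (34.0%), against 34.05% of all peaks (15518 of 45575), 34.4% of the 3′ UTR class and 34.7% of the remaining distal intergenic peaks. On the strand of the followed gene it stood in 54 (15.8%) and on the opposite strand in 78 (22.9%), and in the plus-strand set in 15.0 and 23.1%. This lean was not confined to AATAAA. In the downstream peaks AAATAA stood in 15.2 and 20.8%, AAAATA in 16.4 and 19.4% and ATAAAA in 17.6 and 18.5%. ATTAAA leaned the other way there (16.7 and 14.7%), but not in the plus-strand set (12.8 and 18.7%). A match of 6 letters is no site of cleavage. The downstream peaks were found on every chromosome but Y, which held 24 peaks of any class. The highest shares of a chromosome's peaks were on chromosome 14 (26 peaks, 1.52%) and X (15, 1.46%), and the lowest share on the other chromosomes was 0.562% on chromosome 7.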

How the data were processed

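Only the annotated peak table of the ChIP library was used. Per the labels, Bowtie2 2.2.6 (GRCm38), MACS2 2.1.1 and ChIPseeker made the file from trimmed reads. A P cut-off of 0.01 is stated in the methods, and the largest deposited P and q were 0.00174 and 0.0486. The deposited fold enrichment is a ratio to the peak caller's background, and P and q were deposited as −log10 values. The ChIPseeker version, and whether the input was the control in peak calling, are not given in the sources used here. Formaldehyde (1%) was applied for 10 min per the labels, while the methods give a shorter time.

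Gene ends came from GENCODE vM21, and RefSeq models and sequence from the RefSeq release of GRCm38. A gene with 1 bp or more inside a peak was called marked. Named genes follow the 10 highest and 10 widest peaks, the 10 highest after unmarked genes, and the listed genes followed by a peak. Others are said to be chosen after their values were seen. The sequence of 1 of the highest peaks is not reported here. The members and lists were chosen with earlier results of these data known. Assignment was tested on simulated peaks. Those on a transcript or with another end closer were dropped beforehand, so the test checks the code and not the choice between convergent ends. Alternatives covered thresholds, merging, gene ends and definitions of a marked gene. Python 3.11.15, pandas 2.3.3, SciPy 1.17.1 and pysam 0.24.0 were used.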

Additional observations from a re-analysis of the deposited data

How the results depend on the processing

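With 1 ChIP library, no replicate could be left out and no test was run. No paired analysis was possible because the input library has no values used here and no groups were compared. Of 61 recomputed values, 42 stayed within the interval of the reported value and 19 moved out of it. A change of direction was not scored. For the number of peaks the interval was a fixed band, 227.33 to 511.5, and not a counting error. The values with ends of gene models were identical to the main ones, since each followed end was also the end of its gene model.

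With only peaks of P below 1e-05 kept in the whole table, 6 downstream peaks remained, with a median width of 1209.5 bp and fold enrichment of 3.55, a marked gene in 50%, a median covered share of 0.953%, a neighbour towards the gene in 33.3%, the deposited gene as followed gene in 66.7% and a start within 1000 bp in 33.3%. With a fold enrichment of at least 3, 65 remained, with 1164 bp, 3.16, 76.2%, 17.5% and 55.4% for the first 5 of these. Both settings also remove body peaks and neighbours. With ends of protein-coding genes only, the deposited gene was the followed gene in 46.3%. Requiring 10% of the body in peaks gave 77.0% marked genes, and a neighbour within 1000 bp was found for 1.76%, the file holding few gaps that short.

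Reading both strands alike gave 614 peaks, both with the class recomputed from GENCODE vM21 and, chosen after seeing the data, with the plus-strand peaks added, and 88.6% of followed genes were then marked. With minus-strand ends only, also chosen after seeing the data, 88.4% were marked. The unknown depth limits the detection of narrow, low peaks, so a gene end without a downstream peak is not shown to lack the mark.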
